A study of Saccharomyces cerevisiae with 10 samples.

Results

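The Ras and protein kinase A (PKA) pathway of budding yeast is represented here by 9 genes: RAS1, RAS2, IRA2, CYR1, PDE1, PDE2, BCY1, TPK2 and TPK3. They were taken by name from the 5989 coding sequences of the deposited table, and were chosen with earlier results of these data known. Their mRNA was followed in wild-type BY4741, a haploid MATa laboratory strain that carries deletions of URA3, LEU2, HIS3 and MET17. Cultures in synthetic complete medium, kept at 30 °C, were brought to OD600 values between 0.4 and 0.5 before KCl was added to 1.5 M. Cells were sampled before the addition (0 h) and at 0.5, 1, 1.5 and 2 h, in 2 independent time series called a and b, which gives 10 libraries and 2 per time. Polyadenylated RNA was turned into random-primed cDNA libraries and sequenced. The 0 h cells, of the same strain and medium without added KCl, were the controls of each later time. The series title concerns stress granules, Pol32 and RNase H1, but the libraries are all wild type.

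Ras1 and Ras2 are small GTPases that, when bound to GTP, activate the adenylate cyclase Cyr1, and Ira2 and its paralog Ira1 are GTPase-activating proteins that return Ras to its GDP form. The cyclic AMP made by Cyr1 binds the regulatory subunit Bcy1 and frees catalytic subunits such as Tpk2 and Tpk3, and the phosphodiesterases Pde1 and Pde2 break cyclic AMP down. Active PKA favours growth and ribosome synthesis in yeast and keeps the stress activators Msn2 and Msn4 out of the nucleus, so that PKA activity and the general stress programme usually oppose each other. That control acts on proteins and cyclic AMP, neither of which was measured.

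The libraries held 3372377 to 8325299 reads on coding sequences. The label markers largely matched BY4741: LEU2 and MET17 had 0 reads in each library and HIS3 had 0 to 7. URA3 had 162 reads in the 0.5 h library of series a and 0 to 5 in each of the others, so that 1 library stands apart from the strain label, and results at 0.5 h are also given without it where that ended a call. STE2, the receptor found on MATa cells, stood at 596 CPM (counts scaled to a library of 1e6 reads) over all libraries against 28.1 CPM for STE3, the receptor of MATα cells. These markers moved with time: STE2 went from 990.3 CPM at 0 h to 292 at 1.5 h and 356 at 2 h, STE3 went from 10.6 CPM at 0 h to 45.8 at 2 h and MF(ALPHA)1, the MATα pheromone gene, from 0.92 to 12.9, while the MATa pheromone genes MFA1 and MFA2 fell from 367 to 45.7 and from 379 to 53.9. Their part in the results was not tested. Reads on RRT15, TAR1, YLR154C-G and YLR162W, 4 coding sequences that share sequence with 25S ribosomal RNA genes, made up 0.0556% and 0.0599% of the reads at 0 h. They rose to 0.512% and 0.545% at 0.5 h and 1.13% and 1.14% at 1 h, then stood at 0.703% and 0.738% at 1.5 h and 0.558% and 0.614% at 2 h. This share moved with time in both series, and its part in the results was not tested.

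Levels are CPM scaled by the trimmed mean of M-values (TMM), that is, relative levels of polyadenylated RNA on coding sequences. They differ from plain shares of the reads by a factor for each library. RNA per cell was not measured, so a fall in relative level and a fall in RNA per cell cannot be told apart. Changes are log2 fold changes from edgeR's quasi-likelihood test over all 10 libraries, called at a Benjamini-Hochberg adjusted p under 0.05 over the 5943 coding sequences tested. The standard error (SE) after ± was derived as the size of the change divided by the square root of the test's F statistic. The p-values measure the spread between 2 libraries per time. All 9 genes passed the filter on low counts, none overlaps another coding sequence in the table, and none of their 25-base stretches is found elsewhere in the nuclear genome.

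At 0.5 h most of the pathway was lower than before the stress, and from 1 h on most of it was higher. RAS1 and TPK3 ran the other way: both rose at 0.5 h and both were below their starting level at 1.5 h and 2 h. At 0.5 h, 6 of 9 genes fell and 2 rose, where 27.6% of all tested genes fell and 26.0% rose. At 1 h, 5 rose and 3 fell, beside 28.9% and 28.1% of all genes. At 1.5 h, 7 rose and 2 fell, beside 37.5% and 39.1%, and at 2 h, 6 rose and 2 fell, beside 37.8% and 37.0%. The median log2 change of the 9 genes was -0.29, 0.27, 0.31 and 0.28 at 0.5, 1, 1.5 and 2 h, where the median of all genes lay between -0.01 and 0.01. These 4 comparisons share the same 2 libraries at 0 h.

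The changes were of moderate size. RAS1 at 1.5 h was the single member called with a change of at least 2-fold against 0 h, where 4.24%, 8.87%, 26.8% and 23.3% of all genes passed this mark at 0.5, 1, 1.5 and 2 h. All 9 genes were called for any change over the 5 times, which 91.7% of all genes were too, so this count says nothing particular about the pathway. Of 63 values (9 genes in 7 comparisons), 54 were called, and each of the 54 had the same sign in series a and in series b and groups that did not overlap. Groups were also apart in uncalled changes, such as that of CYR1 from 0.5 h to 1 h. The share was not worked out for all called genes, so this count says nothing particular about the pathway. When libraries were scaled by their size alone, the median of all genes moved by 0.32 at 1.5 h and 0.28 at 2 h on the log2 scale, and each member's change moved with it. With that scaling, 68.4% of the genes called at 1.5 h and 68.2% of those called at 2 h were higher, against 49.0% and 50.5% with TMM, and 36.6% against 48.5% at 0.5 h. The changes given here are relative to the TMM scale.

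**Figure D1:**
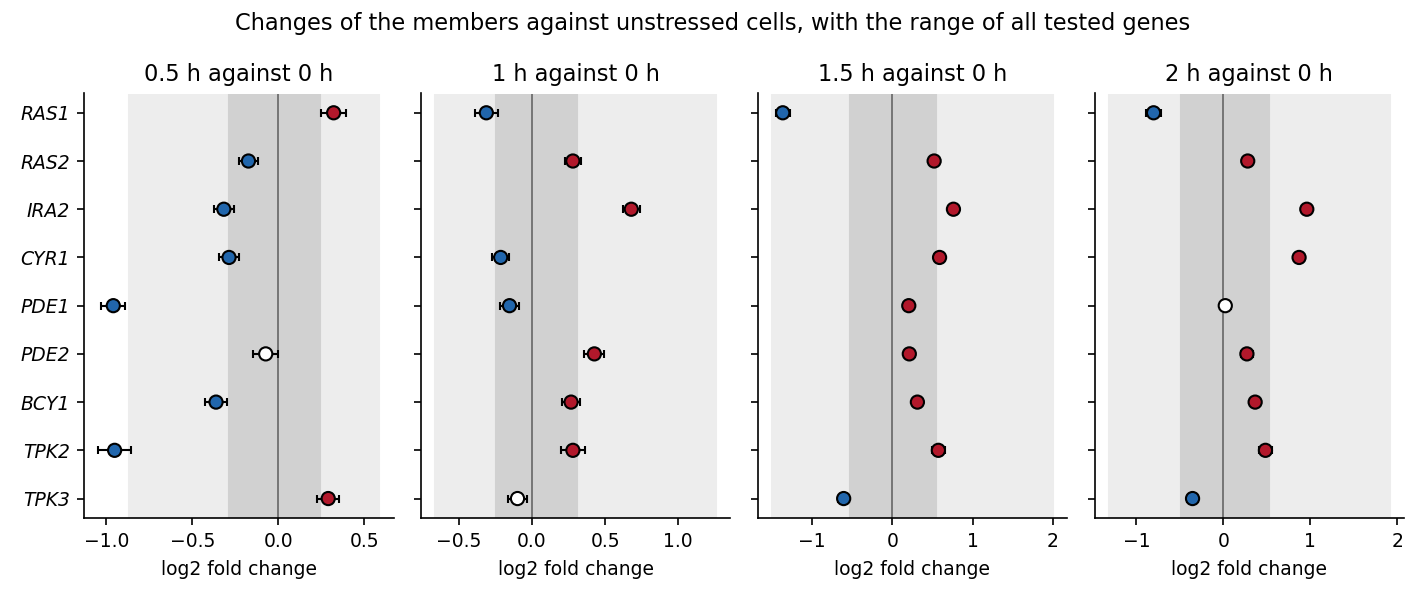
Log2 fold change against 0 h (horizontal axis, with the standard error derived from edgeR's F statistic) of the 9 genes at each later time. Red points rose, blue points fell and white points did not pass the test, and the dark and light bands hold the middle 50% and 90% of all tested genes. RAS1 and TPK3 are the points right of 0 at 0.5 h and left of 0 at 1.5 h and 2 h.

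RAS1 and RAS2, the GTPases at the head of the pathway, moved in opposite directions at each time after the KCl was added. RAS1 lies on the plus strand of chromosome XV (chrXV:515244-516173, build R64) and RAS2 on the minus strand of chromosome XIV (chrXIV:439602-440570), each as a single interval. Their coding sequences are 69.7% identical over 902 aligned bases. The stretches shown here, coding bases 46 to 105 of each gene (chrXV:515289-515348, plus strand, and chrXIV:440466-440525, minus strand), hold the longest run they share, which is 17 bases. Capitals mark the 11 of 60 bases that differ. They are shown because the opposite courses of these genes rest on telling their reads apart.
RAS1: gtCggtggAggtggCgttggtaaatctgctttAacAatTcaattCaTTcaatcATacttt
RAS2: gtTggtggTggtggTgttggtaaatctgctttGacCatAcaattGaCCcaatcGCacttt

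RAS1 stood at 99.9 CPM in series a and 100.3 in series b at 0 h, at 133 and 119 at 0.5 h, at 80.0 and 81.0 at 1 h, at 41.5 and 37.1 at 1.5 h, and at 61.5 and 55.2 at 2 h. Both 0.5 h libraries were above, and all 6 later libraries below, the 0 h libraries. The log2 change against 0 h was 0.32 ± 0.07 at 0.5 h (edgeR adjusted p = 0.00126), -0.31 ± 0.08 at 1 h (0.00275), -1.37 ± 0.09 at 1.5 h (1.73e-11) and -0.80 ± 0.08 at 2 h (3.74e-08). Its mean level at 0.5 h was 3.21 times that at 1.5 h, the widest span of means among the 9 genes. Between 1.5 h and 2 h it rose again, by 0.57 ± 0.09 (adjusted p = 0.000133).

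RAS2 stood at 262 and 249 CPM at 0 h in series a and b, at 225 and 228 at 0.5 h, at 311 and 309.6 at 1 h, at 358 and 375 at 1.5 h, and at 306 and 313 at 2 h. Both libraries at 0.5 h were below both at 0 h, and the 6 later libraries were all above. It fell by 0.17 ± 0.06 on the log2 scale at 0.5 h (edgeR adjusted p = 0.0137). That call was lost when a library was left out: the adjusted p was 0.105 without series a at 0 h, 0.0617 without series a at 0.5 h, the library with URA3 reads, and 0.0550 without series b at 0.5 h. It was also lost with DESeq2 (0.190). RAS2 was higher by 0.28 ± 0.06 at 1 h (0.000256), by 0.52 ± 0.05 at 1.5 h (3.05e-08) and by 0.28 ± 0.05 at 2 h (0.000122).

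IRA2, the Ras GTPase-activating protein, showed the largest rise of the pathway at 2 h. The gene spans chrXV:171070-180309 on the plus strand and, with 9240 coding bases, is the longest member. IRA2 stood at 237 and 251 CPM at 0 h, 198 and 194 at 0.5 h, 386 and 394 at 1 h, 400.2 and 425 at 1.5 h, then 467 and 480.4 at 2 h. The 0.5 h libraries were the lowest and the 2 h libraries the highest, with no overlap with 0 h at any time. It fell by 0.32 ± 0.06 at 0.5 h (edgeR adjusted p = 0.00019) and was higher by 0.68 ± 0.06 at 1 h (5.98e-09), 0.76 ± 0.06 at 1.5 h (2.04e-10) and 0.96 ± 0.06 at 2 h (6.46e-12). Most of the rise came between 0.5 h and 1 h, where IRA2 gained 1.00 ± 0.06 (1.57e-11).

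The paralog IRA1, which is not a member, rose later. It stood at 227 and 236 CPM at 0 h, 178 and 179 at 0.5 h, 174 and 164 at 1 h, 224 and 239 at 1.5 h, then 302 and 287 at 2 h. IRA1 fell by 0.38 ± 0.06 at 0.5 h (2.34e-05). It was lower at 1 h by 0.46 ± 0.06 (edgeR adjusted p = 1.99e-06), when IRA2 was already higher, and was called higher at 2 h, by 0.34 ± 0.06 (1.55e-05). At 1.5 h it did not pass the test (0.01, 0.936), but was 0.32 higher with scaling by library size alone (3.47e-05). CDC25, the exchange factor that loads Ras with GTP and a gene chosen after its values were seen, fell by 0.41 ± 0.06 at 1 h (1.21e-05), 0.61 ± 0.06 at 1.5 h (1.76e-08) and 0.47 ± 0.06 at 2 h (7.60e-07).

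**Figure D2:**
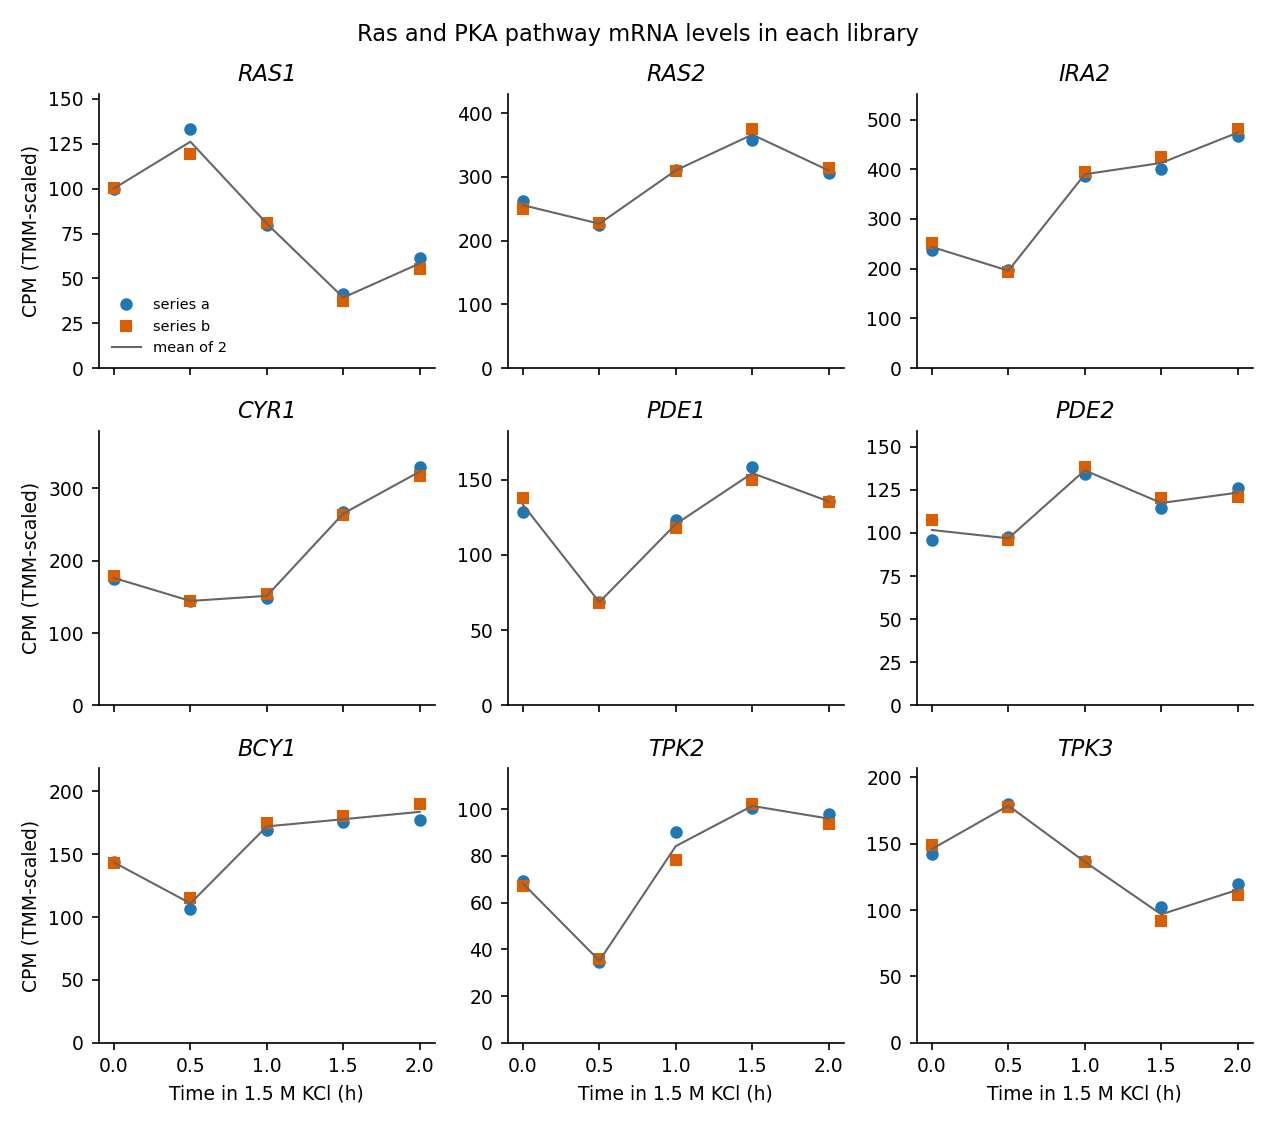
TMM-scaled CPM (vertical axes, from 0) of each gene against time in 1.5 M KCl in hours, with circles for series a, squares for series b and a line through the mean of 2 libraries. RAS1 and TPK3 peak at 0.5 h, while TPK2 and PDE1 drop to 35.1 and 68.6 CPM there before they recover.

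CYR1, the adenylate cyclase that makes cyclic AMP, was the slowest to rise. It lies at chrX:425157-431237 on the plus strand. CYR1 stood at 174 and 178 CPM at 0 h, 144 and 145 at 0.5 h, 149 and 154 at 1 h, 267 and 263 at 1.5 h, then 329.8 and 316 at 2 h. The 0.5 h and 1 h libraries were all below 0 h and the 1.5 h and 2 h libraries all above. It fell by 0.29 ± 0.06 at 0.5 h (edgeR adjusted p = 0.000346) and was still lower by 0.21 ± 0.06 at 1 h (0.00385). It was then higher by 0.59 ± 0.05 at 1.5 h (4.44e-09) and 0.87 ± 0.05 at 2 h (1.08e-11). The step from 1 h to 1.5 h was 0.80 ± 0.05 (5.50e-11), and CYR1 went on rising to 2 h by 0.28 ± 0.05 (0.000279).

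The phosphodiesterases followed different courses. PDE1 encodes the low-affinity enzyme (chrVII:35653-36762, plus strand) and PDE2 the high-affinity enzyme (chrXV:1013241-1014821, minus strand). PDE1 stood at 129 and 138 CPM at 0 h, 69.0 and 68.2 at 0.5 h, 123 and 118 at 1 h, 159 and 149.9 at 1.5 h, then 136 and 135 at 2 h. It fell to 68.6 CPM on average at 0.5 h, a change of -0.96 ± 0.07 (edgeR adjusted p = 9.62e-10), and the 2 h libraries lay inside the range of the 0 h libraries, with a change of 0.02 ± 0.06 (0.755). With scaling by library size alone the change at 2 h was 0.31 (edgeR adjusted p = 0.000204).

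Its other differences from 0 h were small. PDE1 was lower by 0.15 ± 0.06 at 1 h (edgeR adjusted p = 0.0480). That call was lost with DESeq2 (adjusted p = 0.160) and when edgeR was fitted to only the libraries of the times compared (0.0816). It was also lost when any of 7 libraries was left out. Without series b at 0 h the change was -0.11, and without series b at 1 h it was -0.11. The others were series a and b at 0.5 h (0.0639 and 0.0636), series a at 1 h (0.0531), and series a and b at 2 h (0.0532 and 0.0552). It was higher by 0.20 ± 0.06 at 1.5 h (0.00439), a call lost without series a at 0 h (0.0633).

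PDE2 had the narrowest span of means of the 9 genes, with a highest mean 1.41 times its lowest. It stood at 95.7 and 108 CPM at 0 h, 97.8 and 95.9 at 0.5 h, 134 and 138 at 1 h, 115 and 119.9 at 1.5 h, then 126 and 121 at 2 h. The 0 h and 0.5 h libraries overlapped, and the 1 h libraries were the highest. The change at 0.5 h did not pass the test (-0.07 ± 0.07, edgeR adjusted p = 0.408). PDE2 rose by 0.43 ± 0.07 at 1 h (2.84e-05) and was higher by 0.21 ± 0.07 at 1.5 h (0.00802) and by 0.27 ± 0.07 at 2 h (0.00141). The call at 1.5 h was lost without series a at 0 h (change 0.13, adjusted p = 0.145), without series b at 1.5 h (0.0797) and with DESeq2 (0.0559).

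BCY1, the regulatory subunit that holds the kinase inactive, lies at chrIX:290419-291669 on the minus strand. It stood at 144 and 143 CPM at 0 h, 106 and 116 at 0.5 h, 169 and 175 at 1 h, 175 and 180.4 at 1.5 h, then 178 and 190.0 at 2 h. Both 0.5 h libraries were below 0 h and the 6 later libraries were all above it and close to each other. BCY1 fell by 0.36 ± 0.07 at 0.5 h (edgeR adjusted p = 0.00012) and was higher by 0.27 ± 0.06 at 1 h (0.00122), 0.31 ± 0.06 at 1.5 h (0.000107) and 0.37 ± 0.06 at 2 h (2.12e-05). Neither step after 1 h passed the test (0.05 ± 0.06 to 1.5 h, adjusted p = 0.504, and 0.05 ± 0.06 to 2 h, 0.532). The step from 1 h to 1.5 h depended on the scaling. It was called with library size alone (0.37, edgeR adjusted p = 1.08e-05) and with upper-quartile factors (0.16, 0.0190).

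TPK2 and TPK3, which encode catalytic subunits of PKA, moved in opposite directions at 0.5 h and again at 1.5 h and 2 h. TPK2 lies at chrXVI:166256-167398 on the plus strand and TPK3 at chrXI:134509-135705 on the minus strand, and their coding sequences are 68.6% identical over 1137 aligned bases. The coding stretches shown here are chrXVI:166583-166642 of TPK2 (plus strand) and chrXI:135265-135324 of TPK3 (minus strand). They hold the longest shared run, of 14 bases, and capitals mark the 15 of 60 bases that differ; they are shown for the same reason as those of the Ras genes.
TPK2: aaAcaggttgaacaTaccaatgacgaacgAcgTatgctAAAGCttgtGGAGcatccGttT
TPK3: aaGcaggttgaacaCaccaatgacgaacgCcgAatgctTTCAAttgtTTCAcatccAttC

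TPK2 stood at 69.2 and 67.2 CPM at 0 h, 34.6 and 35.7 at 0.5 h, 90.3 and 78.1 at 1 h, 101 and 102 at 1.5 h, then 98.1 and 93.8 at 2 h. Both 0.5 h libraries were far below 0 h and all 6 later libraries above it. TPK2 fell by 0.95 ± 0.09 at 0.5 h (edgeR adjusted p = 9.18e-08), then gained 1.23 ± 0.09 between 0.5 h and 1 h (4.62e-10). Against 0 h it was higher by 0.28 ± 0.08 at 1 h (0.00716), 0.57 ± 0.08 at 1.5 h (1.23e-06) and 0.48 ± 0.08 at 2 h (1.59e-05). The call at 1 h was lost without series a at 1 h (change 0.20, adjusted p = 0.0739) and with DESeq2 (0.0567).

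TPK3 stood at 143 and 149 CPM at 0 h, 180.0 and 178 at 0.5 h, 137 and 136 at 1 h, 102 and 91.5 at 1.5 h, then 119.5 and 111 at 2 h. The 0.5 h libraries were the highest and the 1.5 h libraries the lowest. TPK3 rose by 0.29 ± 0.06 at 0.5 h (edgeR adjusted p = 0.000684), did not pass the test at 1 h (-0.10 ± 0.07, 0.208), and fell by 0.61 ± 0.07 at 1.5 h (7.34e-08) and 0.35 ± 0.07 at 2 h (7.68e-05). With scaling by library size alone the change at 2 h was -0.07 (adjusted p = 0.345).

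The balance within each pair was then measured inside each library, as a ratio of reads per kilobase, which does not depend on the scaling between libraries. RAS2 to RAS1 was 2.52 and 2.38 in series a and b at 0 h, 1.62 and 1.83 at 0.5 h, 3.73 and 3.67 at 1 h, 8.28 and 9.68 at 1.5 h, then 4.79 and 5.45 at 2 h. No 2 times overlapped. TPK2 to TPK3 started from 0.508 and 0.471 at 0 h, 0.201 and 0.210 at 0.5 h, 0.690 and 0.602 at 1 h, 1.03 and 1.17 at 1.5 h, then 0.859 and 0.884 at 2 h. Per kilobase, TPK2 thus passed TPK3 in the 1.5 h libraries. In series a it did so by little, with 507 reads on TPK2 and 515 on the longer TPK3. PDE2 to PDE1 started from 0.522 and 0.548 at 0 h, 0.995 and 0.987 at 0.5 h, 0.764 and 0.826 at 1 h, 0.508 and 0.562 at 1.5 h, then 0.649 and 0.629 at 2 h. Here the 0 h and 1.5 h libraries overlapped, and the 0.5 h libraries stood above the rest.

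Each ratio differed between the 5 times by an exact permutation test of the F statistic over all 113400 assignments of 10 libraries to 5 times. The range between the highest and the lowest time was 2.38 log2 units for RAS2 to RAS1 and 2.42 for TPK2 to TPK3, each with an exact p of 0.00106, the smallest the design allows (0.00159 after Benjamini-Hochberg adjustment over the 3 ratios). For PDE2 to PDE1 it was 0.89 (exact p = 0.00317, adjusted 0.00317). The pooled SD between the 2 libraries of a time was 0.11, 0.10 and 0.06 log2 units.

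**Figure D3:**
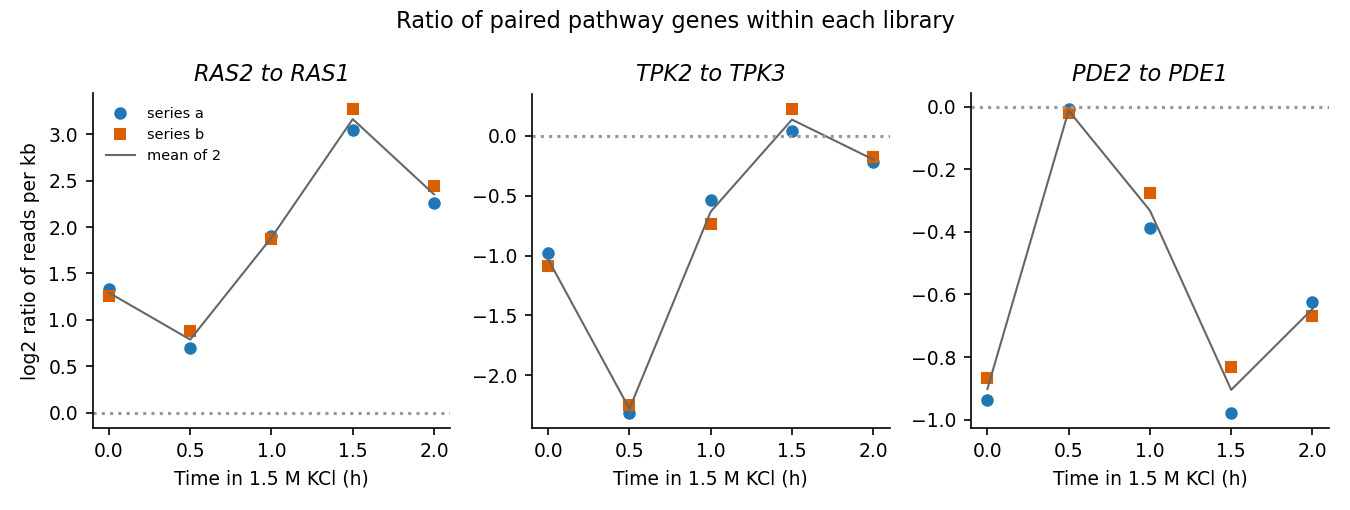
Log2 ratio of reads per kilobase (vertical axes) within each library against time in hours, with circles for series a, squares for series b, a line through the mean of 2 libraries and a dotted line where both genes are equal. The ratios of RAS2 to RAS1 and TPK2 to TPK3 are lowest at 0.5 h and highest at 1.5 h, while PDE2 to PDE1 is highest at 0.5 h.

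On the scale of TMM-scaled CPM per kilobase, RAS2 had the highest level of the 9 genes at each time, from 234 at 0.5 h to 378 at 1.5 h. The lowest level was that of IRA2 at 0 h (26.4), 0.5 h (21.2) and 2 h (51.3), of CYR1 at 1 h (24.9), and of RAS1 at 1.5 h (42.3). RAS1, CYR1 (43.6) and IRA2 (44.7) could not be put in order at 1.5 h, because the libraries of neighbours overlapped. At 0.5 h RAS1, at 136, had come right behind RAS2 and TPK3 (149). At 0 h the order from the top was RAS2 (264), TPK3 (122), PDE1, BCY1 (115), RAS1 (108), PDE2 (64.3), TPK2 (59.7), CYR1 (29.0) and IRA2. There TPK3 overlapped PDE1 and PDE2 overlapped TPK2. By 1.5 h BCY1 (142) and PDE1 (139), which overlapped each other, followed RAS2. The level of IRA1 and IRA2 together, relative to that of RAS1 and RAS2 together, was 0.138 ± 0.008 at 0 h and 0.109 ± 0.002 at 0.5 h (SD, n = 2). It was 0.149 ± 0.0002 at 1 h, 0.166 ± 0.004 at 1.5 h and 0.217 ± 0.001 at 2 h (SD, n = 2), and was not tested.

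The steps between neighbouring times show when each gene moved. From 0.5 h to 1 h, 6 genes rose (TPK2, IRA2, PDE1, BCY1, PDE2 and RAS2) and 2 fell (RAS1 and TPK3), beside 32.9% and 32.1% of all genes. In this step TPK2 changed by at least 2-fold, as 9.27% of all genes did. From 1 h to 1.5 h, 4 rose (CYR1, PDE1, TPK2 and RAS2) and 3 fell (RAS1, TPK3 and PDE2), beside 34.1% and 34.0% of all genes. RAS1 alone fell by at least 2-fold (-1.06 ± 0.09), as against 15.2% of all genes changing that far in either direction. From 1.5 h to 2 h, 4 rose (RAS1, CYR1, TPK3 and IRA2) and 2 fell (RAS2 and PDE1), beside 15.5% and 9.47%. Scaled by library size alone, 75.8% of the genes called from 1 h to 1.5 h were higher, against 50.1% with TMM, and 49.1% against 62.1% from 1.5 h to 2 h. With upper-quartile factors these shares were 61.1% and 50.2%.

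Several of these steps were small and rested on single libraries. The rise of TPK2 from 1 h to 1.5 h (0.29 ± 0.07, edgeR adjusted p = 0.00122) was 0.17 (0.119) without series b at 1 h. The rise of TPK3 from 1.5 h to 2 h (0.25 ± 0.07, 0.00782) was 0.16 (0.183) without series b at 1.5 h and 0.21 (0.0564) without series a at 2 h. The fall of PDE2 from 1 h to 1.5 h (-0.21 ± 0.06, 0.0049) was not called without series b at 1 h (0.0701), was -0.10 (0.157) with upper-quartile factors, and was 0.11 (0.126) with scaling by library size alone.

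The last step was the least firm. The fall of PDE1 from 1.5 h to 2 h (-0.18 ± 0.06, edgeR adjusted p = 0.0237) was not called without series a at 1.5 h (0.134), series a at 2 h (0.0643) or series b at 2 h (0.156). The rise of IRA2 (0.20 ± 0.05, 0.01) was not called without series a at 1.5 h (0.0951) or series b at 2 h (0.098). Of the 6 calls in this step, 3 held with DESeq2.

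Around the members, the Ras exchange, GTPase activation and glucose receptor branch had 11 measured genes. Of these, 2 rose and 8 fell at 0.5 h, 3 and 7 at 1 h, 4 and 5 at 1.5 h, then 5 and 4 at 2 h; 3 rather than 5 fell at 1.5 h with library size alone or upper-quartile factors. Of all tested genes 26.0%, 28.9%, 37.5% and 37.8% rose, and 27.6%, 28.1%, 39.1% and 37.0% fell, at 0.5, 1, 1.5 and 2 h; the counts of this list and of those that follow are to be read beside these shares. The counts of this branch at 1.5 h and 2 h lay close to these shares. RGS2, which turns off the Gα protein of the glucose receptor, fell from 199 to 46.9 CPM at 0.5 h (-2.09 ± 0.08, edgeR adjusted p = 4.86e-14) and fell by 2.31 ± 0.08 at 1 h (1.02e-14). PLC1, phospholipase C, fell by 0.63 ± 0.09 at 1 h (8.80e-06). TFS1, which inhibits carboxypeptidase Y and the Ira2 protein, fell by 0.70 ± 0.11 at 0.5 h (2.82e-05) and was higher by 2.96 ± 0.08 at 1.5 h (1.44e-17). SRV2, the cyclase-associated protein, rose by 0.35 ± 0.06 at 0.5 h and 0.46 ± 0.06 at 1 h. ASC1, a ribosomal protein that also serves as the Gβ subunit of the receptor branch, rose by 0.54 ± 0.05 at 0.5 h and fell by 1.92 ± 0.05 at 1.5 h. The receptor gene GPR1 fell by 0.59 ± 0.07 at 0.5 h, was lower by 0.29 ± 0.07 at 1 h and was higher by 0.50 ± 0.06 at 2 h. GPA2, its Gα subunit, fell by 0.58 ± 0.07 at 0.5 h and was higher by 0.49 ± 0.07 at 1.5 h. At 2 h GPA2 did not pass the test (0.13 ± 0.07, edgeR adjusted p = 0.108).

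The list of genes for farnesylation, CaaX end processing and palmitoylation had 7 members, and their action on Ras was not measured. At 0.5 h, 1 of them fell, at 1 h 1 rose and 1 fell, at 1.5 h 1 rose and 2 fell, and at 2 h 1 rose and 4 fell. STE24, a CaaX protease, was higher by 0.36 ± 0.06 at 1.5 h (edgeR adjusted p = 4.56e-05), and STE14, the methyltransferase, fell by 0.62 ± 0.10 at 1.5 h (1.95e-05). RAM2, a farnesyltransferase subunit, rose by 0.42 ± 0.08 at 1 h (0.000197). SHR5, a palmitoyltransferase subunit, fell by 0.54 ± 0.17 at 0.5 h (0.0101), a call lost without series a at 0 h (change -0.29, 0.223) or series b at 0.5 h (0.0801), and by 0.76 ± 0.17 at 1 h (0.000952), a call lost without series b at 1 h (-0.48, 0.0688). RAM1, the other farnesyltransferase subunit, fell by 0.35 ± 0.12 at 1.5 h (0.0125), a call lost without series a at 0 h (0.072) or series b at 1.5 h (0.059) and with library size alone (-0.03). RCE1, a CaaX protease, fell by 0.57 ± 0.16 at 2 h (0.00373), a call lost without series b at 2 h (0.0776) and with library size alone (change -0.29, 0.114). With library size alone 3 of the 7 were higher and 1 lower at 1.5 h, and at 2 h 2 were higher and none of the 4 falls was called by edgeR, with 0 at an unadjusted p under 0.05; DESeq2, with its own size factors, called 4.

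Among 6 kinases that act beside PKA, 2 rose and 2 fell at 0.5 h, 2 rose at 1 h, and 3 rose and 3 fell at both 1.5 h and 2 h; with library size alone 1 fell at these last times and 1 rose at 0.5 h, and with upper-quartile factors 1 fell at 1 h. The counts at 0.5 h lay near the shares of all genes. YAK1, a growth-inhibiting kinase whose action opposes PKA, fell by 1.36 ± 0.07 at 0.5 h (edgeR adjusted p = 1.68e-12). It was then higher than at 0 h, by 0.30 ± 0.06 at 1 h (0.000252), 0.36 ± 0.06 at 1.5 h (1.25e-05) and 0.22 ± 0.06 at 2 h (0.00227). RIM15, a kinase of quiescence that PKA holds inactive, fell by 0.45 ± 0.07 at 0.5 h (5.14e-05). It was higher by 0.88 ± 0.06 at 1.5 h (1.56e-10) and 0.95 ± 0.07 at 2 h (6.81e-11). SCH9, a growth-promoting kinase, rose by 0.31 ± 0.06 at 0.5 h (0.000131) and fell by 0.35 ± 0.06 at 1.5 h (1.50e-05), where library size alone gave -0.03. MCK1, a glycogen synthase kinase homolog, rose by 0.21 ± 0.07 at 0.5 h (0.0109), a call lost without series b at 0.5 h (0.129) and with library size alone (change 0.14, 0.0941), and fell by 0.57 ± 0.07 at 1.5 h (3.19e-07). TOR1, a kinase that promotes growth, rose by 0.33 ± 0.06 at 1 h (0.000139).

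Of 18 transcription regulators and effectors under PKA, 15 fell and 2 rose at 0.5 h, 10 fell and 4 rose at 1 h, and 8 fell and 5 rose at both 1.5 h and 2 h. With library size alone 9 rose at each of these last times, and 8 at 2 h with upper-quartile factors. MSN2, which activates the stress programme, fell at 0.5 h by 0.29 (edgeR adjusted p = 0.0022). It was higher by 0.71 ± 0.07 at 1 h (edgeR adjusted p = 2.31e-08), while its paralog MSN4 was lower by 0.98 ± 0.07 at 0.5 h (6.62e-10) and 0.88 ± 0.07 at 1 h (1.84e-09). GIS1, a regulator of genes used after glucose is gone, rose by 1.13 ± 0.07 at 1 h (7.28e-11) and was higher by 1.49 ± 0.07 at 1.5 h (8.08e-14). MAF1, the repressor of RNA polymerase III, fell by 1.04 ± 0.09 at 0.5 h (8.14e-09). PHD1, a regulator of filamentous growth, fell by 1.14 ± 0.07 at 1 h and 1.56 ± 0.07 at 2 h. TOD6, a repressor of ribosome biogenesis genes, fell by 1.99 ± 0.09 at 1.5 h, and RAP1, an activator of ribosomal protein genes, by 1.48 ± 0.06 at 2 h. ADR1, an activator of genes repressed by glucose, was higher by 0.95 ± 0.06 at 2 h. The 2 that rose at 0.5 h were RAP1, by 0.21 ± 0.06 (0.00349), and TOD6, by 0.18 ± 0.07 (0.0356). The TOD6 call was lost with DESeq2 (0.0803), with library size alone (change 0.10, 0.232) and without series a at 0 h (0.206), series a at 0.5 h (0.117) or series b at 0.5 h (0.0935).

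Of 11 metabolic enzymes listed as PKA substrates, 5 fell and 1 rose at 0.5 h, 7 rose and 1 fell at 1 h, 9 rose and 2 fell at 1.5 h, and 8 rose and 1 fell at 2 h. The count that rose at 0.5 h was 3 with DESeq2's size factors and 2 without series a at 0 h. The median log2 change of the list was -0.10, 0.37, 1.20 and 1.09. GSY2, a glycogen synthase, fell by 2.07 ± 0.06 at 0.5 h (edgeR adjusted p = 6.43e-16), and GPH1, glycogen phosphorylase, by 1.53 ± 0.08 (6.49e-12). At 1.5 h the mean of GSY2 stood at 375 CPM against 302 at 0 h, and that of GPH1 at 242 against 102. PFK26, which makes fructose 2,6-bisphosphate, was higher by 1.55 ± 0.06 at 1 h (8.08e-14) and 2.13 ± 0.06 at 1.5 h (6.73e-17). The means of the trehalase genes NTH1 and NTH2 went from 231 and 97.9 CPM at 0 h to 103 and 57.5 at 0.5 h. NTH1 was then higher than at 0 h by 1.41 ± 0.06 at 1.5 h (1.08e-14), and NTH2 by 1.52 ± 0.06 at 2 h (1.32e-14). CDC19, pyruvate kinase, rose by 0.39 ± 0.04 at 0.5 h and fell by 1.19 ± 0.04 at 2 h. PFK27, a paralog of PFK26, fell by 0.40 ± 0.07 at 1 h and by 0.28 ± 0.07 at 1.5 h, where library size alone gave 0.04. FBP1, the gluconeogenic phosphatase, rose by 1.22 ± 0.19 at 1 h.

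The 22 listed targets of Msn2 and Msn4 mostly fell at 0.5 h and rose from 1 h on. At 0.5 h 18 fell and 1 rose, with a median log2 change of -1.13; at 1 h 20 rose and 2 fell, with a median of 1.57; at 1.5 h 20 rose and 1 fell (2.28); and at 2 h 21 rose (2.12). HSP104, a disaggregase, fell from 1996 to 279 CPM at 0.5 h (-2.84 ± 0.05, edgeR adjusted p = 3.66e-19), and TSL1, a trehalose synthase subunit, fell by 2.13 ± 0.06 (4.89e-16). HSP12, a small membrane-stabilising stress protein, was the gene that rose at 0.5 h (2 genes rose with DESeq2's size factors or without series a at 1 h), by 1.27 ± 0.07 (9.87e-12), and it was higher by 5.34 ± 0.07 at 1 h and 6.78 ± 0.07 at 1.5 h. ALD3, an aldehyde dehydrogenase, was higher by 5.05 ± 0.06 at 1 h and 6.03 ± 0.07 at 1.5 h. YGP1 and GAC1 were the 2 that fell at 1 h, by 0.56 ± 0.06 and 0.33 ± 0.09; the call of GAC1 was lost without series a at 0 h (change -0.25, adjusted p = 0.0705). YGP1 also fell by 0.30 ± 0.05 at 1.5 h, where library size alone gave 0.02.

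The stress response element, the site that Msn2 and Msn4 bind, was searched as AGGGG on both strands (CCCCT when it lies on the other strand). In the window from 250 bases before to 50 bases after the start codon, CYR1 and PDE1 held it, which makes 2 of 9, beside 21.6% of all 5984 windows. In the 500 bases before the start codon, a window chosen after the values were seen, RAS2, CYR1, TPK2, PDE1 and PDE2 held it, 5 of 9 beside 34.1% of 5983. RAS1, TPK3, BCY1 and IRA2 did not hold it there. RAS2 had 5 matches, and CYR1, TPK2, PDE1 and PDE2 had 1 each. A match describes letters in a window and is not shown to be a bound site.

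The RAS2 matches include 4 within 67 bases, shown because it is the densest run among the members and RAS1 has none. This stretch (chrXIV:440983-441049, minus strand, 413 to 479 bases before the start codon) lies between the coding sequences of PHO23 and PLS1, and the fifth match, at 318 bases, is inside PLS1, so these bases also lie before PLS1. The TPK2 site, 280 bases before the start codon (chrXVI:165964-165992, plus strand), is shown beside the lack of a match at TPK3, with 12 bases on either side. The last is CYR1, 211 bases before (chrX:424934-424962, plus strand). Capitals mark the match. Sequences are from RefSeq, build R64, in the direction of the gene.
RAS2: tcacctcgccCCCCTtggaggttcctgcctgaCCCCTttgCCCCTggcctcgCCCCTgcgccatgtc
TPK2: ggaaggaaattaAGGGGgagcggagcacc
CYR1: tggaaggaaagcAGGGGggacttaccata

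A pair of short motifs common before ribosome biogenesis genes, the PAC core GATGAG and the RRPE core AAAATTTT, were searched on both strands after the values were seen. Among the 9 members RAS1 alone held either in the 500 bases, and it held both, at 246 and 24 bases before the start codon. They occur in 28.3% and 12.4% of all 500-base windows. The RAS1 sites (chrXV:514986-515015 and chrXV:515208-515239, plus strand) are shown with the match in capitals, the first of them on the other strand.
RAS1 PAC core: aaactttttcaaCTCATCgcaagattatga
RAS1 RRPE core: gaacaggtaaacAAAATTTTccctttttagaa

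For each member, the genes with the most similar course were taken as the 2 with the highest Pearson correlation of log2 CPM over the 10 libraries. These correlations describe libraries that share times, and with 5 times many genes run alike. The closest to RAS1 were ERG25, a sterol methyl oxidase (r = 0.995), and UTP9, a small-subunit processome component (0.994), and 458 of 5942 other genes had an r of at least 0.95. The closest to TPK3 were RRP9, an rRNA processing factor, and SMI1, a cell wall synthesis regulator (both 0.989), with 325 genes at that level. The closest to TPK2 were SSE2, a heat shock protein of the Hsp110 family (0.997), and TPS1, trehalose-6-phosphate synthase (0.993), with 145 genes.

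BCY1 was most like RNY1, an RNase of the vacuole (0.989), and IRA2 most like GIS1 (0.988) and UGA1, a GABA transaminase (0.987). CYR1 was most like UBR1, a ubiquitin ligase (0.993), and YOR1, a plasma membrane transporter (0.992). RAS2 was most like GDH3, a glutamate dehydrogenase (0.991), and GTO3, a glutathione transferase (0.984). PDE1 was most like YGR237C (0.993) and FAA1, an acyl-CoA synthetase (0.987). PDE2 stood most alone: its closest genes were CHC1, the clathrin heavy chain, and PEX32, a peroxisomal protein (both 0.961), and these 2 were the only genes with an r of at least 0.95.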

How the data were processed

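RNA-seq libraries of BY4741 at 5 times in 2 series were analysed. The deposited table gave read counts per coding sequence, called raw per the file headers; 2.77% ended in 0.5, so they were handled as the authors' estimated counts and rounded to whole numbers. Build R64 is named in the submitters' processing notes; the aligner, the counter and strand use are not stated there. Of 65885 lines, 1302 gene and mRNA lines and 4693 identical second copies were left out. Counts were tested with edgeR 4.0.16 (R 4.3.3): filterByExpr (46 of 5989 left out), TMM (factors 0.8765 to 1.1613), quasi-likelihood fit on time, Benjamini-Hochberg over 5943. The biological coefficient of variation was 4.05%. All tests were two-sided. The fit was tested on data simulated with a common spread for all genes, with 50 genes changed by each fold at 1.5 h. It recovered 54% of 1.25-fold, 94% of 1.5-fold and 100% of 2-fold changes, and called 11 unchanged genes. Ratios were tested by exact permutation in Python 3.11.15 with scipy 1.17.1. Plots were drawn with matplotlib 3.10.9. Alternatives were DESeq2 1.42.0, other scalings, no filter, other rounding, only the times compared, each library left out and a replicate block.

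The design text calls the series independent replicate experiments, so the series letter pairs libraries; deviations of libraries of the same series from their time means correlated at -0.115 to 0.314 over 5613 genes, and the main fit has no block. How the cultures were started is not stated. Members and lists were chosen with earlier results of these data known, so their counts are descriptions. Named genes are the members, the genes most like each, and from each list those among the 2 largest called rises and falls at each time against 0 h with libraries apart and at least 10 CPM; each gene so chosen is named, though not at each of its times, except 1 that is not reported here. IRA1 and CDC25 fall outside that rule and were chosen after their values were seen. The floor of 3 reads (0.360 to 0.890 CPM) covers counting error only.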

Additional observations from a re-analysis of the deposited data

How the results depend on the processing

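The replicate block changed none of the 63 calls of the members, and with it the ratios of RAS2 to RAS1, TPK2 to TPK3 and PDE2 to PDE1 had exact p-values of 0.00833, 0.00833 (the smallest it allows) and 0.0167. Other rounding and no filter changed no call either, and a fit to the libraries of the times compared lost 1. DESeq2 lost 8 calls, so that 3 members in place of 6 were called from 1.5 h to 2 h; the cause was not tested. Library size alone reversed the change of PDE2 from 1 h to 1.5 h (0.108), lost 1 call and gained 4. The gained calls were CYR1 from 0.5 h to 1 h, BCY1 and IRA2 from 1 h to 1.5 h, and PDE1 at 2 h against 0 h. Upper-quartile factors lost 1 call and gained 2, those of BCY1 and IRA2 from 1 h to 1.5 h. For genes outside the members, library size alone turned the changes of PFK27 (0.0401) and YGP1 (0.0156) at 1.5 h against 0 h. With libraries left out, the range of the log2 ratio ran from 2.26 to 2.49 for RAS2 to RAS1 and from 0.886 to 0.964 for PDE2 to PDE1. Uncalled changes that turned sign with a library left out ranged, over those fits, from -0.00532 to 0.092 for BCY1 from 1.5 h to 2 h and from -0.0267 to 0.071 for PDE1 at 2 h. They ranged from -0.156 to 0.0128 for PDE2 at 0.5 h, and from -0.0474 to 0.0463 for IRA1 at 1.5 h. Over all genes, 1485 were called from 1.5 h to 2 h and 766 with DESeq2. Of 1584 values of list genes under the alternatives, 26 changed their call or sign, and of 864 list counts 37 moved by over 1.5 times. With 2 libraries per time and 149 to 4357 reads per member and library, depth limits what can be said of the smallest changes.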
